A study of Rattus norvegicus with 4 samples.

Results

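The miRNAs miR-144 and miR-451 lie next to each other in the rat genome and are the best-known miRNAs of red blood cells. They were taken as rows named rno-miR-144 and rno-miR-451 in the scanner output of each array, and make up 2 of the 350 rat miRNAs measured. Both were present on all 4 arrays as named rows, and both passed the filter on low values, miR-144 only because both sham arrays detected it. Total RNA came from the gracilis, a muscle of the thigh, of male Sprague-Dawley rats. The sham group (n = 2) had the operation without ischemia, and the ischemia-reperfusion group (n = 2) had 4 h of ischemia followed by reperfusion. The labels of the samples put reperfusion at 4 h, but the series text puts it at 24 h, and the files do not settle which is right. No genetic change, age or pooling is given for either group in the sources used here, and the label protocols mention no removal of blood from the muscle.

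The miR-144 and miR-451 hairpins are cut from a shared primary transcript that the erythroid transcription factor GATA1 switches on, and both miRNAs accumulate while red-cell precursors mature. Red cells keep them after losing the nucleus, so whole tissue that holds blood contains them. miR-451 is unusual in that Dicer does not process it: Argonaute 2 cuts its short hairpin, and the product is then trimmed. Mice without the cluster have red cells that are sensitive to oxidative damage. In plasma, the level of miR-451 relative to miR-23a, a miRNA scarce in red cells, is a common check for broken red cells.

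The sequences of the neighbours come from RefSeq on build GRCr8, where both hairpins matched by gene symbol. How the hairpins are cut was not measured here. Mir144 lies at chr10:63459397-63459479 and Mir451a at chr10:63459569-63459640, both on the plus strand, with 89 bases between them. The annotation used here places both outside other genes. The nearest is the protein-coding gene Eral1, which starts 134 bases past Mir451a. Hairpins are written 5′ to 3′ with the arm that gives the main mature miRNA in capitals.
Mir144 hairpin: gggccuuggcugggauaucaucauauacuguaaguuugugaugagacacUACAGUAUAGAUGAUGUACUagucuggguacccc
Mir451a hairpin: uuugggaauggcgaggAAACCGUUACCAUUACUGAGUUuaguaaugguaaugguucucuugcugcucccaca
In the secondary structures predicted by RNAfold, none of the 20 bases of miR-144-3p fell in the terminal loop, whereas 4 of the 22 bases of miR-451-5p did. The annotated 5p and 3p products were 14 bases apart in Mir144 and 5 bases apart in Mir451a.

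Mature miRNAs find their targets mainly through the seed, bases 2 to 8, which is in capitals in the mature sequences.
rno-miR-144-3p: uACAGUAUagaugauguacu
rno-miR-451-5p: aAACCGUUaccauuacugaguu
Among the 693 mature rat miRNAs in the RefSeq table, no other shared bases 2 to 8 with either. The closest seeds to that of miR-144-3p were those of miR-101a-3p and miR-101b-3p, which share bases 2 to 7 and are printed for comparison.
rno-miR-101a-3p: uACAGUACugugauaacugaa
rno-miR-101b-3p: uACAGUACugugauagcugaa
The array names carry no arm. Its name miR-144 is the older name of miR-144-3p, and its name miR-451 that of miR-451-5p.

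Each sample was hybridised in 1 colour to its own array, and a value is the total background-subtracted signal of a miRNA with the scanner software's own error. The arrays differed in brightness, with 121 to 187 miRNAs detected on each, so each array's signals were first scaled to the 75th percentile of the 78 miRNAs seen on every array, and levels are log2 of that scaled signal. Ischemia-reperfusion replicate 2 stood apart. It detected 0 of 5 skeletal muscle miRNAs, among them miR-1 and miR-133b, while each other array detected all 5, so this sample lacked the defining miRNAs of the tissue it is labelled as. Sham replicate 2 and ischemia-reperfusion replicate 1 were nearly alike: their log2 ratios over 171 miRNAs had an SD of 0.27, whereas the sham pair had 1.33 and the ischemia-reperfusion pair 1.95. Having only 2 arrays per group limits how precise any value can be.

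Relative to the upper quartile of its array, miR-451 was higher in both ischemia-reperfusion samples than in either sham sample. Its signal was 1181 units (scanner error 91.8) in sham replicate 1 and 713 units (53.6) in sham replicate 2. After ischemia-reperfusion it was 1138 units (85.5) in replicate 1 and 264 units (19.3) in replicate 2. As deposited the groups overlapped, and the dimmest array gave the lowest signal. After scaling, the log2 level was −1.52 and −0.72 in the sham samples and 0.19 and 1.52 after ischemia-reperfusion, so the groups did not overlap. Both ischemia-reperfusion arrays were the higher ones for 19 of 159 miRNAs tested, or 11.9%, and the lower ones for 21, or 13.2%. For miR-451 the order also held with each of 3 other scalings examined by array (the percentile over all miRNAs, the median and quantile normalization), but not without scaling. In whole muscle, fewer cells of a type and less RNA per cell cannot be told apart.

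The log2 difference of miR-451 was 1.97 ± 1.01 (SE, n = 2 per group), and it did not pass the test (limma, unadjusted p = 0.110, Benjamini-Hochberg adjusted p = 0.817). It ranked 24 of 159 from the highest difference. limma called 0 of the 159 (0%) at an adjusted p under 0.05, and 2 (1.26%) had an unadjusted p under 0.05, neither of them miR-144 or miR-451. These were the epithelial miR-200c and miR-205, whose signals in ischemia-reperfusion replicate 1 are described below. Without ischemia-reperfusion replicate 2 the difference was 1.31, and without replicate 1 it was 2.63. Each of these fits left a single ischemia-reperfusion array. They also kept the scaling to miRNAs seen on every array, so the sample that stood apart still bore on the levels. Without scaling the difference was −0.74.

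**Figure D1:**
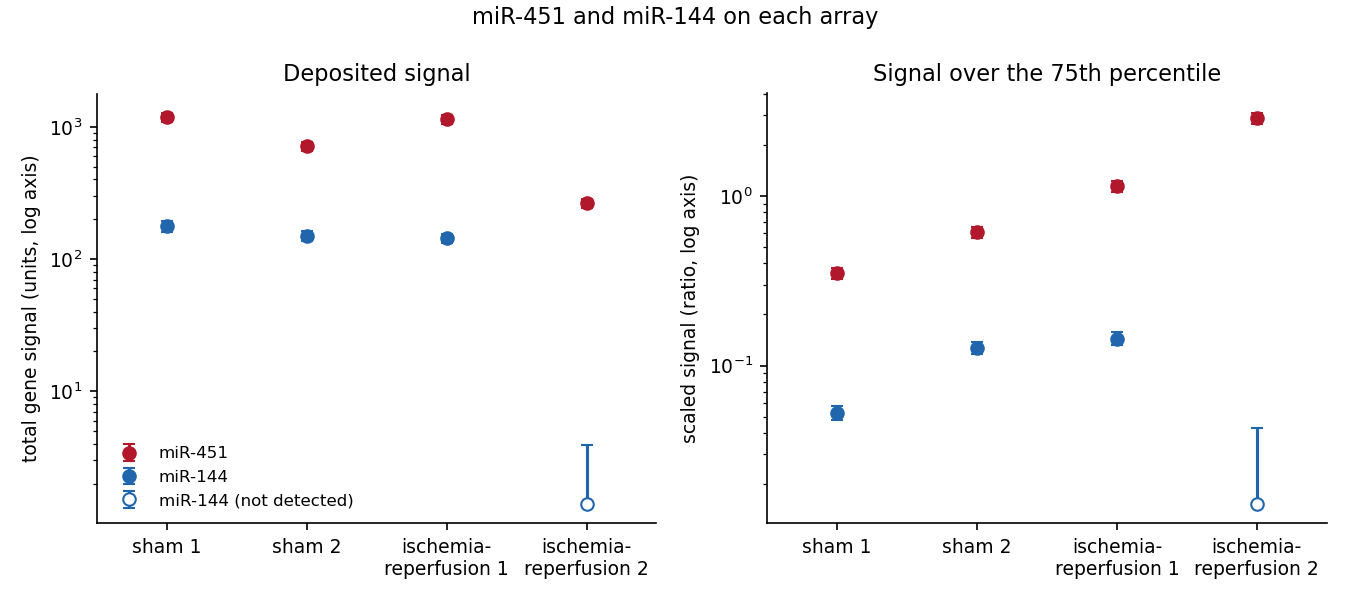
Total gene signal of miR-451 and miR-144 on each array as deposited (left, units) and divided by the array's 75th percentile (right, ratio), both on log axes. Points are single arrays, bars are the scanner error, and the open point is a miRNA that was not detected, drawn without a lower bar because its error exceeded its signal. The deposited miR-451 signal ran from 264 to 1181 units, and only after scaling were both ischemia-reperfusion arrays above both sham arrays.

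miR-144 was not detected in ischemia-reperfusion replicate 2, where its neighbour was. Its signal was 178 units (scanner error 16.6) and 149 units (12.5) in the sham samples and 143.5 units (12.2) in ischemia-reperfusion replicate 1. In ischemia-reperfusion replicate 2 it was 1.41 units (2.52) and not detected. The first 3 signals were close together, and the last did not exceed its error. On the scaled log2 scale the levels were −4.25 and −2.97 in sham muscle, −2.79 in ischemia-reperfusion replicate 1 and −6.03 in replicate 2, so the groups overlapped. The fitted log2 difference of −0.80 ± 1.42 (SE, n = 2 per group, limma adjusted p = 0.826) uses the undetected signal as deposited, and is not a measured size. It was −0.53 with that signal at the lowest detected signal of its array and 0.55 with it at the highest undetected signal there, an alternative chosen after seeing the data. These limits leave the direction in that sample relative to the upper quartile unmeasured. Without that array the difference was 0.82.

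The ratio of the neighbours needs no scaling between arrays. Its size on any array depends on the brightness of both probes and is not a ratio of molecules, so only its change from array to array is read. The ratio of miR-451 to miR-144 was 6.65 in sham replicate 1, 4.77 in sham replicate 2 and 7.93 in ischemia-reperfusion replicate 1. In ischemia-reperfusion replicate 2, with miR-144 undetected, it was 128 with the lowest detected signal of that array (2.06 units) in place of miR-144. The highest undetected signal there was 9.15 units (miR-98), and with this in its place the ratio was 28.8. Either way it lay above the range of the other arrays. At the ratios of those arrays, the 264 units of miR-451 would go with 33.2 to 55.2 units of miR-144, and 69 of the 121 miRNAs detected on that array had signals under 33.2 units.

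Over the groups, the log2 ratio of miR-451 to miR-144 was higher after ischemia-reperfusion by 2.77 with the undetected miR-144 signal as deposited, by 2.50 with it at the lowest detected signal of its array and by 1.42 with it at the highest undetected signal. With each of these, 2 of 2 arrays were above both sham arrays. The exact permutation test over samples gave a two-sided p of 0.333, the smallest that 2 against 2 arrays allow, and 0.417 adjusted over the 5 ratios tested. Without ischemia-reperfusion replicate 2 the difference was 0.49. There the ratio of replicate 1 (log2 2.99, scanner error 0.16) was close to that of sham replicate 1 (2.73, error 0.18) and above that of sham replicate 2 (2.25, error 0.16). The large gap thus came from a single sample, in which miR-144 was undetected and the size of the gap was not measured.

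The ratio of miR-451 to other miRNAs of blood and vessel was compared in the same way. All 5 ratios share the miR-451 signal and are not separate evidence. Against miR-23a, the usual reference of the plasma check, the ratio was 0.178 and 0.260 in sham muscle and 0.516 and 0.607 after ischemia-reperfusion. Both ischemia-reperfusion samples were above both sham samples, and the replicates of each group were close together. The log2 difference was 1.38, with an SD of 0.39 between the sham arrays and 0.17 between the others (exact permutation p = 0.333, two-sided, the smallest possible, adjusted p = 0.417). It ran from 1.10 to 1.65 when any 1 array was left out, the narrowest range of the 5 ratios.

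miR-16 is abundant in red cells and in most other cells. The ratio of miR-451 to it was 0.229 and 0.290 in sham muscle, 0.565 in ischemia-reperfusion replicate 1 and 2.95 in replicate 2. The log2 difference was 2.32, and 1.13 without replicate 2. The ratio to miR-126, an endothelial miRNA, was 0.276 and 3.10 in sham muscle and 5.02 and 7.51 after ischemia-reperfusion. The 2 sham samples differed more from each other than sham replicate 2 did from either ischemia-reperfusion sample. The ratio to miR-223, a miRNA of neutrophils and monocytes, was 7.20 and 0.371 in sham muscle and 0.610 and 11.6 after ischemia-reperfusion, so the groups overlapped. Its log2 difference of 0.71 (exact permutation p = 0.667) turned to −1.42 without ischemia-reperfusion replicate 2 and to −1.43 without sham replicate 2.

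**Figure D2:**
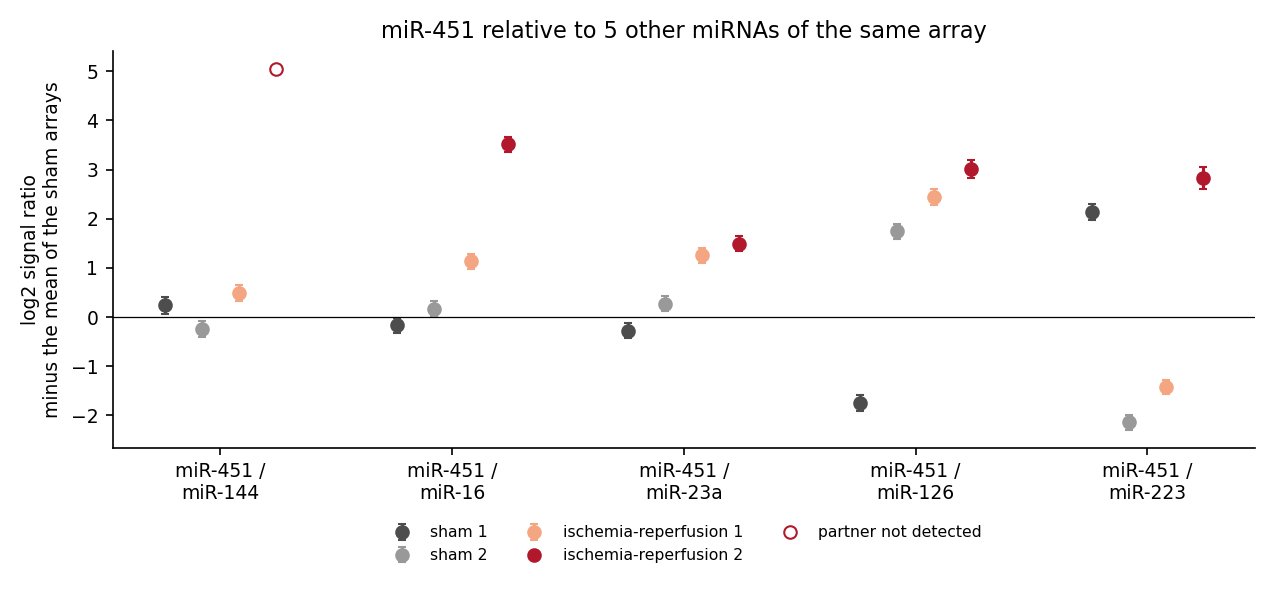
Log2 ratio of the miR-451 signal to that of 5 other miRNAs on the same array, minus the mean of the sham arrays (vertical axis, log2), with 1 point per array and bars for the scanner error of both signals combined. The open point has its partner, miR-144, below detection and no bar. Both ischemia-reperfusion arrays lie above both sham arrays for miR-144, miR-16, miR-23a and miR-126 but not for miR-223. The sham arrays lie far apart for miR-126 and miR-223. Scaled miR-451 had that order by itself, and the order was not counted over other possible partners. All 5 ratios share the miR-451 signal, so they are not separate evidence.

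Pairs of single arrays show where miR-451 stood among all miRNAs, here as log2 signal ratios minus the median ratio of the pair. Between ischemia-reperfusion replicate 1 and sham replicate 2, the pair that was nearly alike, miR-451 had the largest ratio in either direction of the 171 miRNAs detected on both arrays. It was 1.02 above the median (2.02-fold), with a scanner error of 0.15. Next in size were miR-30c-1* at −0.82, from signals of 4.30 and 1.92 units, and miR-136 at −0.78. In the same pair miR-144 was 0.28 above the median and ranked 17, with an error of 0.17, while miR-16 was at 0.05 and miR-23a at 0.03. This compares 2 arrays and not the conditions, and miRNAs detected on 1 of the arrays have no place in it.

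The other pairs were more scattered, and miR-451 was not extreme in them. For ischemia-reperfusion replicate 1 over sham replicate 1, miR-451 was at 1.53 and miR-144 at 1.27. Between the sham replicates themselves, replicate 2 over replicate 1, miR-451 was at 0.52 and miR-144 at 1.00, so both neighbours also differed between samples of the same group. Ischemia-reperfusion replicate 2 gave 0.88 for miR-451 over sham replicate 2, ranked 27 of 94, and 1.66 over sham replicate 1, ranked 16 of 81. Between the ischemia-reperfusion replicates it was at −0.014. These pairs share arrays and are not separate evidence.

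**Figure D3:**
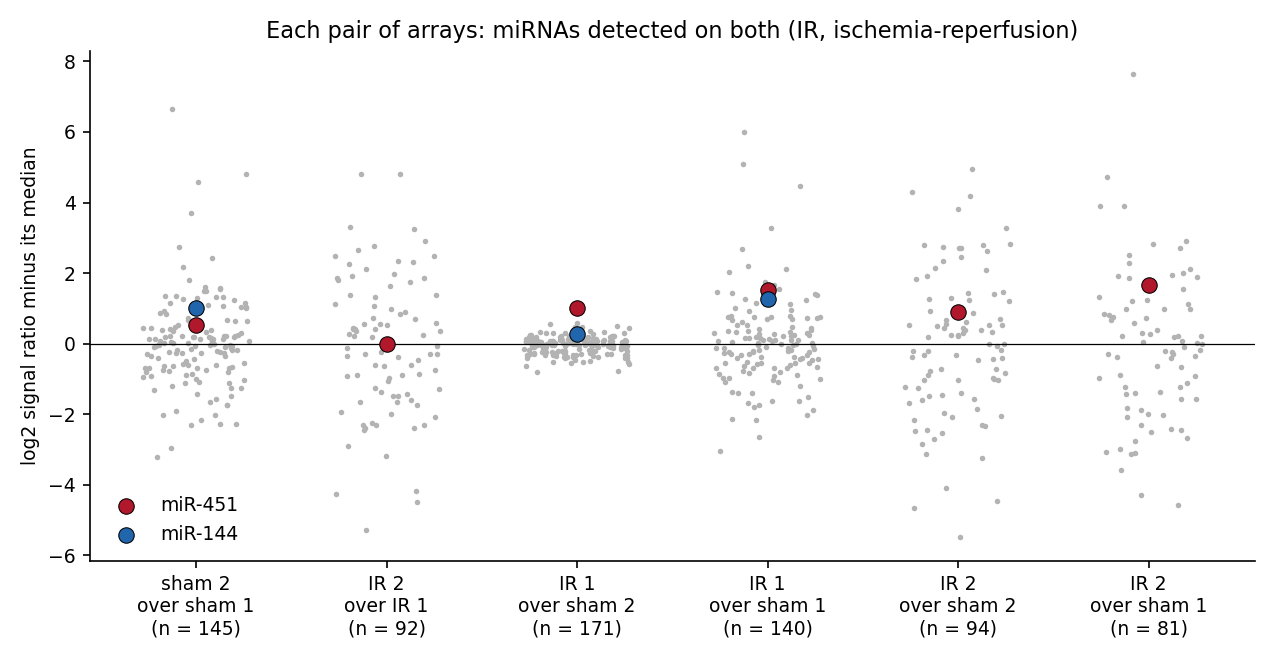
Log2 signal ratio of every miRNA detected on both arrays of a pair, minus the pair's median (vertical axis, log2), for the 6 pairs of arrays, with n the number of miRNAs. Grey points are single miRNAs, red is miR-451 and blue is miR-144, which has no point in pairs with ischemia-reperfusion replicate 2. In the tight cloud of ischemia-reperfusion 1 over sham 2, miR-451 is the outermost point at 1.02.

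The list of miRNAs abundant in red cells held 10 miRNAs, of which 9 were on the array (all but miR-486), 8 could be tested and miR-363 was detected on no array. None passed the limma test. Of the 8, 5 differences were positive (62.5%) with a median of 0.58, near the 61.6% positive and median of 0.45 over all 159 miRNAs tested. The 6 besides miR-144 and miR-451 had 4 positive and 2 negative differences and ran from −0.79 to 2.08. Without ischemia-reperfusion replicate 2 all 8 differences were positive, with a median of 0.68. Over all miRNAs tested 54.1% were then positive and the median was 0.06. In that replicate 1, miR-16, miR-93 and miR-185 were above sham replicate 1 but not above sham replicate 2. Positive were 4 of 8 without sham replicate 1, and 5 of 8 without sham replicate 2 or without ischemia-reperfusion replicate 1. With the 75th percentile over all miRNAs 2 of 8 were (35.8% of all tested), and without scaling 0 of 8 (9.43%).

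miR-92a, a member of the proliferation cluster miR-17-92 that red cells also hold in quantity, had a difference close to that of miR-451. Its sham signals were 226 and 194 units and its ischemia-reperfusion signals 199 and 90.9 units, and its log2 difference was 2.08 ± 1.22 (SE, limma adjusted p = 0.817). Its scaled levels put both ischemia-reperfusion arrays above both sham arrays. For miR-16 the sham signals were 5156 and 2460 units and the others 2015 and 89.4 units, a difference of −0.35 ± 0.96. Its relative miR-15b, with the same seed family, was at 0.63 ± 0.91. miR-25 and miR-93, of the miR-106b-25 cluster, were at 0.54 and 0.76. miR-185 was undetected in ischemia-reperfusion replicate 2, as miR-144 was. Its difference was −0.79 with the signal as deposited, −0.16 at the lowest detected signal of that array and 0.92 at its highest undetected signal, so its direction was not measured.

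The scaled signals of the detected list members other than miR-144 and miR-451 summed to 1.81 and 2.66 in sham muscle and to 2.63 and 2.38 after ischemia-reperfusion. These sums overlapped. miR-451 was at 0.349 and 0.609 in sham muscle and at 1.14 and 2.86 after ischemia-reperfusion on the same scale, and did not overlap. The largest part of the sums was miR-16, except in ischemia-reperfusion replicate 2, where miR-92a slightly exceeded it. The log2 levels of miR-16 were 0.61 and 1.07 in sham muscle and 1.02 and −0.041 after ischemia-reperfusion. As for miR-451, the levels of miR-92a, miR-15b and miR-25 put both ischemia-reperfusion arrays above both sham arrays. The levels of miR-16, miR-93 and miR-185 did not. Over all miRNAs tested, 19 of 159 (11.9%) had that order. For miR-25 the nearest levels were −3.07 and −3.09. The order of miR-92a, miR-15b and miR-25 was not examined by array under other scalings.

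miRNAs reported to fall while red-cell precursors mature were looked at beside these. miR-221 and miR-222, which repress the receptor KIT in early precursors, were brightest in ischemia-reperfusion replicate 2. miR-222 gave 71.4 units there and was undetected elsewhere, and miR-221 gave 60.0 units there against 17.8 units (undetected) and 42.0 units on the sham arrays and 27.2 units on the remaining array. Of the 4 miRNAs of this list 3 were tested, all with positive differences, as had 61.6% of all 159 miRNAs tested. They were 1.27 ± 2.06 (SE) for miR-223, 0.65 ± 0.96 for miR-24 and 3.28 ± 1.92 for miR-221. The last was 3.09 with the highest undetected signal of sham replicate 1 in place of its own. None passed, and the levels of all 3 overlapped between the groups. miR-221 entered the test only because both ischemia-reperfusion arrays detected it.

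Markers of white cells, endothelium and muscle also differed between samples, but in other orders than scaled miR-451. White-cell miRNAs, 5 on the array, were detected 4 and 5 times in sham muscle and 5 and 2 times after ischemia-reperfusion, with summed scaled signals of 0.293 and 4.24 against 4.15 and 0.359. miR-142-5p, miR-150 and miR-342-3p were undetected in ischemia-reperfusion replicate 2, where miR-451 was highest after scaling. Of the endothelial miRNAs, miR-126 was detected on all arrays and miR-126* in sham replicate 1 only, and their sums were 1.31 and 0.196 in sham muscle and 0.228 and 0.381 after ischemia-reperfusion. The skeletal muscle sums were 62.7 and 96.6 in sham muscle, 91.1 in ischemia-reperfusion replicate 1 and 0 in replicate 2, where all 5 members (miR-1, miR-133a, miR-133b, miR-206 and miR-499) were below detection. The part of these markers in the result for miR-451 was not tested.

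Epithelial miRNAs were detected 0 times of 7 in each sham sample, 2 times in ischemia-reperfusion replicate 1 and 6 times in replicate 2, with sums of 0.349 and 6.32 after ischemia-reperfusion. The 2 in replicate 1, miR-200c and miR-205, were deposited with 8 significant digits, whereas every other signal on the 4 arrays has at most 6. Their scanner errors were 2.02% and 1.11% of the signal, against 7.17% to 8.74% for the other 24 detected miRNAs of 100 to 300 units on that array. Without these values the count in replicate 1 is 0 of 7. miR-200c and miR-205 are also the only miRNAs tested with an unadjusted limma p under 0.05. They entered the test only because both ischemia-reperfusion arrays detected them. The miR-451 and miR-144 signals of that array had 6 digits and scanner errors of 7.51% and 8.52%.

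**Figure D4:**
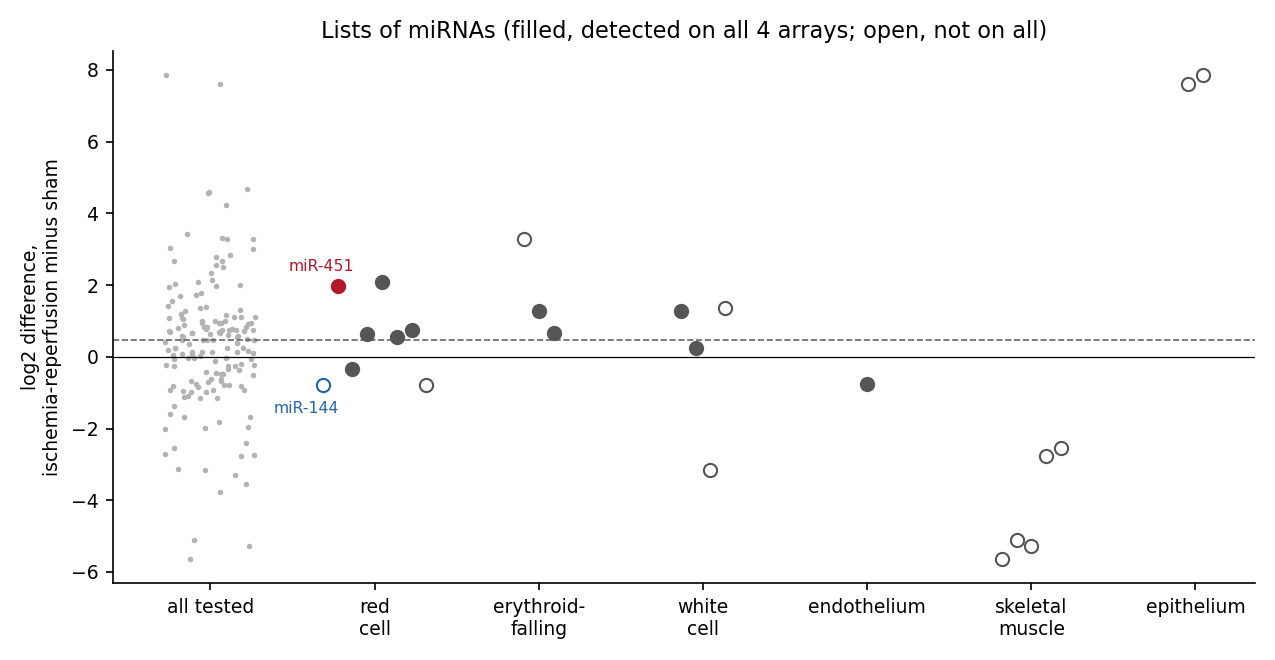
Log2 difference, ischemia-reperfusion minus sham, of all 159 miRNAs tested (grey) and of the tested members of 6 lists (vertical axis, log2). Each point is a miRNA, filled where all 4 arrays detected it, with miR-451 in red and miR-144 in blue, and the dashed line is the median of all tested miRNAs, 0.45. The red-cell list straddles that line, with miR-451 at 1.97 and miR-144, undetected on 1 array, at −0.80.

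The miRNAs whose pattern over the arrays was most like that of miR-451 were members of the miR-17 clusters. Likeness was the root mean square difference of log2 levels after centring each miRNA on its mean, over the 4 arrays, for 77 miRNAs detected on all of them. The smallest were miR-19a (0.31), miR-20a (0.32), miR-17-5p (0.37), miR-92a (0.39) and miR-19b (0.40), against a median of 0.92. For miR-144 the measure covers only the 3 arrays that detected it and 139 candidates. The smallest were miR-92a (0.0518), miR-140* (0.0846), miR-19a (0.0931), miR-133b (0.11) and miR-301a (0.12), against a median of 0.59. miR-451 ranked 26 of the 139 for likeness to miR-144, at 0.30. With so few arrays, these values describe the samples only.

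Of the miRNAs that share most of the miR-144 seed, miR-101b was detected on the same arrays as miR-144, and miR-101a on every array. The sham signals of miR-101a were 1193 and 546 units and the others 416 and 19.7 units, and it was detected in all samples, with a log2 difference of −0.44 ± 0.95 (SE, limma adjusted p = 0.841). Those of miR-101b were 319 and 146 units, followed by 98.2 units in ischemia-reperfusion replicate 1 and −1.63 units, undetected, in replicate 2. Its fitted log2 difference of −3.12 ± 2.10 (SE, limma adjusted p = 0.817) puts the undetected signal at the floor and is not a measured size.

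**Figure D5:**
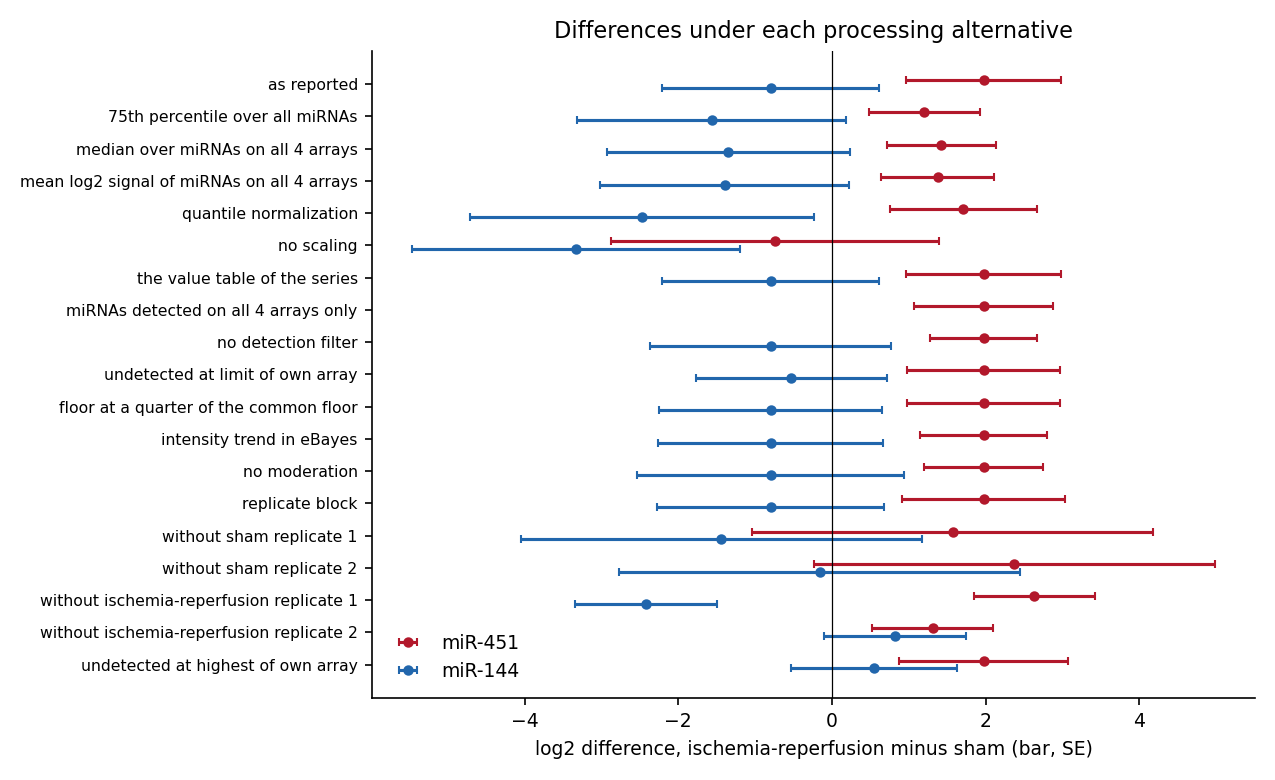
Log2 difference, ischemia-reperfusion minus sham, of miR-451 and miR-144 under each processing alternative (horizontal axis, log2), with bars for the limma standard error, or the ordinary one without moderation. miR-451 is positive in 17 of 18 alternatives and negative without scaling. The alternatives of value table, filter, floor, test and replicate block leave it at 1.97 by construction, so the 18 are not separate checks. Several of them also leave miR-144 at −0.80. miR-144 is negative in 15 of 17 and positive without ischemia-reperfusion replicate 2 and with undetected signals at the highest of their array.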

How the data were processed

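Total RNA from 4 gracilis samples was labelled with Cy3 and hybridised to 1-colour arrays. The submitters' processing notes name Agilent Feature Extraction, version 9.5.3. The deposited files hold, per the file headers, each miRNA's total signal intensity, its scanner error, also an intensity, and a detection flag. The intensities deposited by the authors are linear, background-subtracted and unscaled. The series' value table held the same values (0 of 1488 differed, tolerance 0).

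The 22 control features were left out. Signals were scaled per array to the 75th percentile of the 78 miRNAs that every array detected (3380 and 1171 units for the sham arrays, 995 and 92.0 units for the others), raised to a floor of 0.00157 and expressed as log2. The 159 miRNAs detected on both arrays of a group were fitted with limma 3.58.1 in R 4.3.3 (lmFit, eBayes, two-sided, Benjamini-Hochberg, threshold 0.05), which was tested on simulated data. Log2 ratios to 5 partners used an exact permutation test over samples. Structures came from RNAfold 2.7.2. The miRNAs named were the 2 members, all members of 6 lists, the ratio partners and, for each member, the 5 closest in pattern, and the miR-101 pair and the largest ratios of a pair of arrays were added after their values were seen. The members and lists were chosen with earlier results of these data known. The sources used here give neither the array design nor a slide or scan date.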

Additional observations from a re-analysis of the deposited data

How the results depend on the processing

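With no scaling the log2 difference of miR-451 turned to −0.74, that of the red-cell list's median to −2.13, and limma called 2 miRNAs, neither of them miR-144 or miR-451. The median difference over all miRNAs tested was −2.18 there. The list's median, 0.58 as reported, also turned with the 75th percentile over all miRNAs (−0.19), the mean log2 signal (−0.015) and quantile normalization (−0.22), where the median of all miRNAs tested moved to −0.31, −0.14 and −0.35. The other alternatives kept the sign of the difference of miR-451 (1.20 to 2.63). Those of value table, filter, floor, test and replicate block left it at 1.97, so its sign there was fixed in advance. In none of the 18 did miR-451 pass the limma test. Leaving out 1 array in turn gave 1.31 to 2.63 for miR-451, −2.41 to 0.82 for miR-144 (positive without ischemia-reperfusion replicate 2), 0.0952 to 0.90 for the list's median, and 0 to 11 miRNAs called, 11 without ischemia-reperfusion replicate 1, none of them a member. The lone array of a group is then assumed to vary like the other group. For the log2 ratio of miR-451, the same ranges were 0.49 to 5.05 to miR-144, 1.13 to 3.52 to miR-16, 1.10 to 1.65 to miR-23a, 0.99 to 4.47 to miR-126 and −1.43 to 2.85 to miR-223, negative at −1.43 when sham replicate 2 was left out and at −1.42 when ischemia-reperfusion replicate 2 was. The replicate numbers are shared by the groups, and the labels do not say whether they pair the samples. Between the replicate differences of the groups r was 0.0973 over 159 miRNAs, which cannot settle pairing. The replicate block left 0 miRNAs called and gave miR-451 an adjusted p of 0.739 and miR-144 one of 0.870. With undetected signals at the highest undetected signal of their own array, chosen after seeing the data, miR-144 turned to 0.55. It had no value among miRNAs detected on all 4 arrays. An undetected signal on ischemia-reperfusion replicate 2, whose lowest detected level was log2 −5.48 against −8.71 to −9.32 on the others, is bounded less tightly.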
